A study of Mus musculus with 4 samples.

Results

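The genes described here are 49 genes of S-phase entry and DNA replication, and all 49 were among the 23359 rows of the expression table. They were chosen by name from knowledge of the replication machinery, with earlier results of these data known. RNA was sequenced from tumor-initiating stem-like cells, a cultured population isolated from liver tumors of C57BL/6 mice. One culture, called the combination here, received 5 µg/ml ATRA and 0.5 µg/ml SAHA, another SAHA alone at 0.5 µg/ml, another ATRA alone at 5 µg/ml, and the last received vehicle. ATRA, all-trans retinoic acid, is the ligand of the retinoic acid receptors, and SAHA, suberoylanilide hydroxamic acid or vorinostat, blocks histone deacetylases. Treatment lasted 16 hours, and for the vehicle culture the time was not given in the sources used here. All 4 cultures grew in the same medium with serum, EGF, dexamethasone and nucleosides, and how many tumors or isolates lay behind the cells was not stated in those sources.

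DNA replication starts when the origin recognition complex, with Cdc6 and Cdt1, loads the MCM helicase ring onto chromosomes in G1. Cdc45 and the GINS complex then join the ring to make the active helicase, the polymerases copy both strands behind it, and single-strand binding protein, the sliding clamp and its loader serve the moving fork. Many of these genes are known targets of the E2F transcription factors, which cyclin E and CDK activity release from the retinoblastoma protein at the G1/S boundary. Dividing cells in culture carry these transcripts, and their levels rise and fall with the share of cells near S phase.

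With 1 library in each group there are no replicates, so differences are described by their size, without errors or p-values. Values are FPKM, a count of fragments scaled by transcript length and library size, and differences are in log2(FPKM + 1), a scale that understates the difference of low genes. A gene was counted when its mean over the 4 libraries was at least 1 FPKM, which 44 of the 49 members and 8616 of all rows reached, and it was called higher or lower at a difference of 1 or more, which is 2-fold on that scale. A fold, where given, is the ratio of 2 FPKM values. In bulk RNA, fewer cells in S phase and less RNA per cell cannot be told apart. Judged from the smallest repeated FPKM steps, a transcript of 1 kilobase at 1 FPKM had about 101, 98.1, 101 and 95 fragments in the combination, SAHA, ATRA and vehicle libraries. The SAHA library differed from the others in composition, with 33.9% of its summed FPKM in the single row Gm20594, against 10.3% to 18.0% in the other libraries. Rescaling the libraries to equal totals without small RNAs and without Gm20594, an alternative chosen after seeing the data, moved the median difference of all counted genes with SAHA over vehicle to 0.24, against -0.12 as deposited, and in the combination over SAHA to -0.39, against 0.14. Of the calls among all counted genes, 63.9% were then higher with SAHA over vehicle, against 33.0% as deposited, and 19.0% in the combination over SAHA, against 76.6%. Below, this rescaling is given beside the calls of members, the medians and the counts that it moves. Of 8 hepatocyte markers 0 reached a mean of 1 FPKM, of 8 mesenchymal markers 4 did, led by Vim, and of 5 bile duct markers 3 did, led by Spp1. Of 3 macrophage markers in the table Cd68 alone reached that mean, and of 3 endothelial, 3 lymphocyte and 2 erythroid markers 0 did.

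Promoter words were not used to choose the genes. Many of the genes are known E2F targets, however, so their share of E2F words is not independent of the choice. RefSeq promoters (build GRCm38.p6, 250 bases before to 50 after the start) matched 40 of the 49 members by symbol, with 47 promoters in all. The E2F words TTTCCCGC, TTTGGCGC, TTTCGCGC and TTTGCCGC, searched on both strands and counted once per promoter where they overlap each other, occurred in 29.8% of these promoters, or in 14 of the 40 genes. The same words occurred in 2.26% of all 32851 promoters of this length and in 4.01% of the 7996 promoters of counted genes. The 14 genes were Mcm3, Mcm5, Mcm6, Mcm7, Orc1, Cdc6, Cdt1, Gins3, Pola1, Pold1, Pole2, Rfc3, Lig1 and E2f2. The box CCAAT, the core of sites for the factor NF-Y, occurred in 57.4% of the members' promoters and 37.4% of all. The words TTTGAA and TTCGAA, found in promoters of G2/M genes as the CHR element, occurred in 17.0% and 19.2%. A match is a run of letters and does not show that a factor binds there.

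The bases just before the start of 3 helicase genes and of a polymerase gene are printed to show where such words lie. They are written 5′ to 3′ on the gene's strand, end at the base before the RefSeq start and carry the E2F words in capitals. Those of Mcm6 are at chr1:128359706-128359875 and those of Mcm3 at chr1:20820313-20820482, both on the minus strand. Those of Mcm5 are at chr8:75109339-75109508 on the plus strand and those of Pola1 at chrX:93632156-93632325 on the minus strand.
Mcm6: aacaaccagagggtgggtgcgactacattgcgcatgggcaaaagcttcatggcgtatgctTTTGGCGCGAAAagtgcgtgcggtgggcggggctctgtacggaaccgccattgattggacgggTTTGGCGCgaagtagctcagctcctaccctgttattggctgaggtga
Mcm5: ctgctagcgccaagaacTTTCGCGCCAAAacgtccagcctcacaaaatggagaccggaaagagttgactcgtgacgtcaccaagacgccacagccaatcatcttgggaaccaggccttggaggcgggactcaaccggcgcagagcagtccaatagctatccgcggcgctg
Pola1: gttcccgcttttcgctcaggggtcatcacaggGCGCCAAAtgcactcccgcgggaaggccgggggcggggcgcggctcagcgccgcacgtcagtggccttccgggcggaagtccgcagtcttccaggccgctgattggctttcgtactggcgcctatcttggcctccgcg
Mcm3: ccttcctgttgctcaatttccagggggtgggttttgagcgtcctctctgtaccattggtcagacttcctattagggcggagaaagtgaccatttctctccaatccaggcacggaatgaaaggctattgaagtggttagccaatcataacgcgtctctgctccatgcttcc
In Mcm6 and Mcm5 a word on one strand overlaps a word on the other. Mcm3 has its words after the start, outside the bases shown.

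The 4 libraries ordered the members in a recurring way. SAHA alone was the lowest of the 4 libraries in 30 of the 44 counted members, or 68.2%, against 37.4% of all counted genes, and it was the highest in 0. ATRA alone was the highest in 23 members, or 52.3%, against 22.7% of all counted genes, and the combination was the highest in 19, or 43.2%, against 35.9%. Vehicle was the highest in 2 members, Tyms and Pole2. After the rescaling without Gm20594, SAHA was the lowest in 15 members, or 34.1%, against 7.47% of all counted genes, and the highest in 13, or 29.5%, against 55.8%, while ATRA was the highest in 18, or 40.9%, against 9.52%. Summed over the 44 members, the level was 264 FPKM in the combination, 174 FPKM in SAHA, 297 FPKM in ATRA and 233 FPKM in vehicle. With the rescaling these sums were 225, 248, 263 and 235 FPKM, so that SAHA was not the lowest by the sum. The median member, as deposited, stood at 4.02, 2.30, 4.58 and 3.69 FPKM in that order. After the rescaling it stood at 3.42, 3.27, 4.05 and 3.72 FPKM, with SAHA still the lowest.

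**Figure D1:**
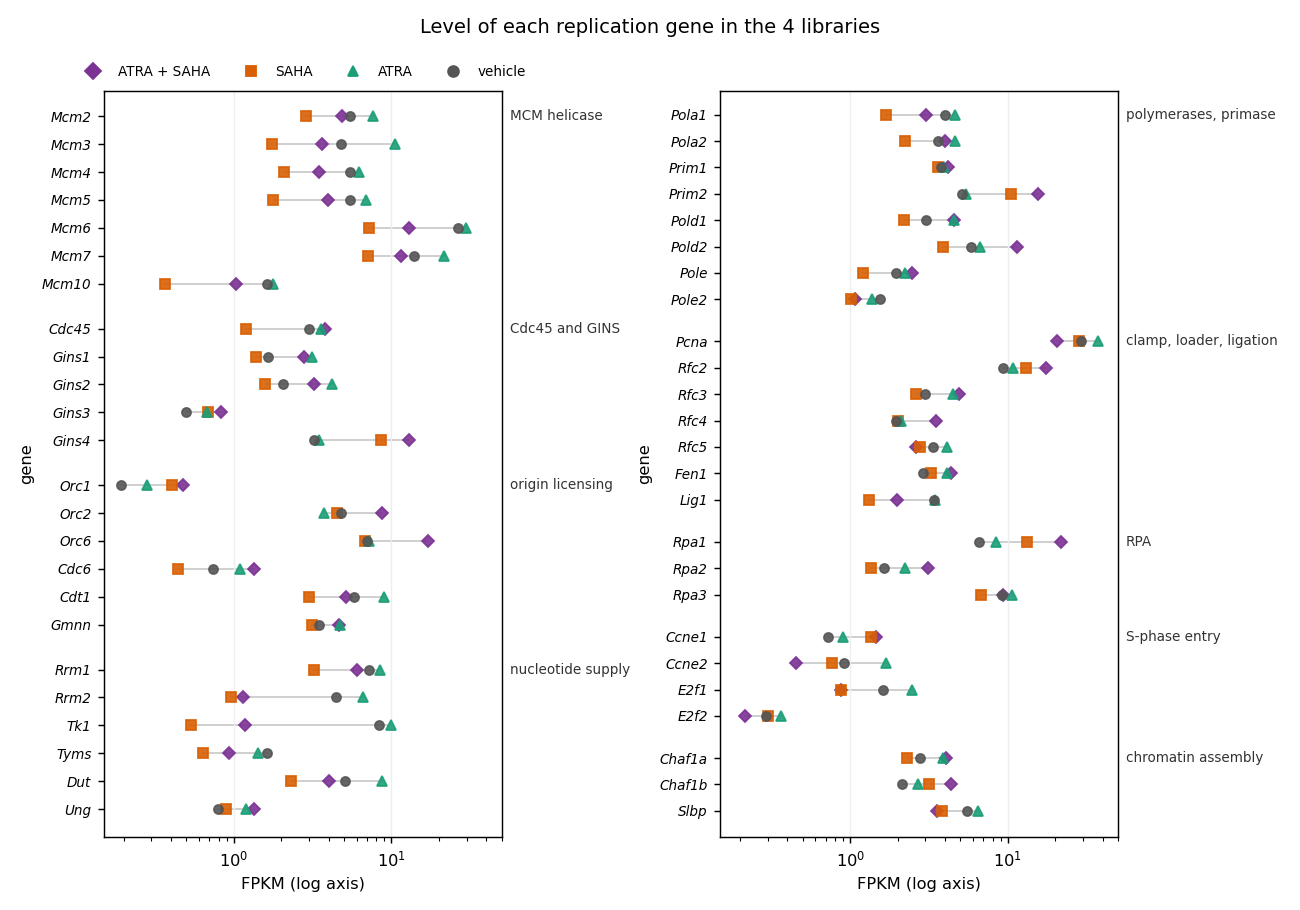
Level of each of the 49 genes in FPKM on a log axis, 1 symbol per library (ATRA + SAHA, SAHA, ATRA, vehicle), with genes grouped by role and a grey line from the lowest to the highest library. The SAHA symbol is the lowest in 30 of the 44 counted genes. Both SAHA-containing libraries are to the right of the others in Gins4, Prim2 and Rpa1, and also in Rfc2, Chaf1b, Ccne1, Gins3 and Orc1.

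The MCM helicase genes were lowest with SAHA. Mcm2 to Mcm7 encode the 6 subunits of the ring, and Mcm10 encodes a factor that helps to activate it. Mcm6, the most abundant of them (chromosome 1, 128331591 to 128359656, mm10), was at 12.8 FPKM in the combination, 7.18 in SAHA, 29.6 in ATRA and 26.4 in vehicle. Both libraries with SAHA were thus below both without it, by 3.68-fold for SAHA against vehicle. Mcm5 (chromosome 8, 75109528 to 75128439) was at 3.98, 1.77, 6.90 and 5.43 FPKM in that order. Mcm4 was at 3.47, 2.07, 6.23 and 5.46 FPKM. Mcm3 was at 3.63, 1.74, 10.5 and 4.76 FPKM, and its ATRA value stood apart from the rest.

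With SAHA alone, 4 of the 7 MCM genes, or 57.1%, were lower by the 2-fold mark, against 16.0% of all counted genes. They were Mcm3 (log2 difference -1.07), Mcm4 (-1.08), Mcm5 (-1.21) and Mcm6 (-1.75). Mcm2 (-0.74), Mcm7 (-0.88) and Mcm10 (-0.95) lay under the mark, on the same side. Over the 7 genes the median difference was -1.07, against -0.12 over all counted genes. With the rescaling without Gm20594 the median was -0.74, still with all 7 below 0. Only Mcm6 (-1.30) then passed the mark, where 10.1% of all counted genes were called lower. In the combination over vehicle 0 of the 7 passed the mark, where 12.6% of all counted genes were called lower and 11.1% higher. With the rescaling Mcm6 alone (-1.21) passed it, where 15.8% of all counted genes were called lower. As deposited the 7 differences ran from -0.99 in Mcm6 to -0.14 in Mcm2. The combination over SAHA gave 7 differences above 0, from 0.55 to 0.84, where 66.7% of all counted genes were above 0. The mark was passed by 0 of the 7, against 3.04% of all counted genes called higher. The median of the 7 was 0.64, against 0.14 over all counted genes. After the rescaling without Gm20594 it was 0.088, against -0.39 over all counted genes, and Mcm7 alone (-0.031) was below 0. Over ATRA, the combination was lower in Mcm3 (-1.31) and Mcm6 (-1.14), or 28.6% of the 7 against 11.9% of all counted genes.

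ATRA alone left all 7 MCM genes above vehicle, from 0.078 in Mcm10 to 0.995 in Mcm3, where 49.5% of all counted genes were above it. Of the 7, 0 passed the mark, against 0.917% of all counted genes called higher. Under that same rescaling, 5 of the 7 were above vehicle and 2 below it, where 26.5% of all counted genes were above it. Mcm3 was at 10.5 FPKM with ATRA against 4.76 with vehicle, or 2.20-fold. Mcm7, which hosts a microRNA cluster in its introns, was at 11.6 FPKM in the combination, 7.09 in SAHA, 21.7 in ATRA and 13.9 in vehicle. Mcm2 was at 4.87, 2.87, 7.63 and 5.48 FPKM in that order and Mcm10 at 1.03, 0.363, 1.77 and 1.63 FPKM.

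The summed level of Mcm2 to Mcm7 was 40.4 FPKM in the combination, 22.7 in SAHA, 82.5 in ATRA and 61.4 in vehicle. FPKM is per length, so levels may be set side by side between genes. Although the ring holds 1 copy of each subunit, Mcm6 and Mcm7 transcripts were the most abundant in all 4 libraries. The Mcm6 share of the sum was 31.8% in the combination, 31.6% in SAHA, 35.9% in ATRA and 43.0% in vehicle.

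Among the partners of the helicase Gins4 stood apart. Gins4, a subunit of the GINS complex (chromosome 8, 23226610 to 23237668), was at 12.97 FPKM in the combination, 8.62 in SAHA, 3.48 in ATRA and 3.24 in vehicle. It was higher in both libraries with SAHA, with a log2 difference over vehicle of 1.72 in the combination and 1.18 with SAHA alone. It was the one member called higher with SAHA alone as deposited, and Prim2 and Rpa1 joined it with centring, with equal upper quartiles and with the rescaling without Gm20594. Gins1, another subunit, was at 2.79, 1.38, 3.14 and 1.65 FPKM and Gins2 at 3.20, 1.57, 4.17 and 2.06 FPKM in that order. For these genes SAHA was the lowest library and ATRA the highest, as in the MCM genes, but with the rescaling both were slightly above vehicle with SAHA (0.15 and 0.077). Gins3 was below the filter, at 0.832, 0.688, 0.674 and 0.494 FPKM. Gins4 made up 65.5% of the GINS sum in the combination, 70.3% in SAHA, 30.4% in ATRA and 43.5% in vehicle.

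Cdc45, which completes the active helicase, was at 3.80 FPKM in the combination, 1.20 in SAHA, 3.55 in ATRA and 2.98 in vehicle. The SAHA library stood alone at the low end. The combination was 3.16-fold above SAHA alone (log2 difference 1.12, or 0.64 with the rescaling without Gm20594), while its difference over vehicle was 0.27.

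**Figure D2:**
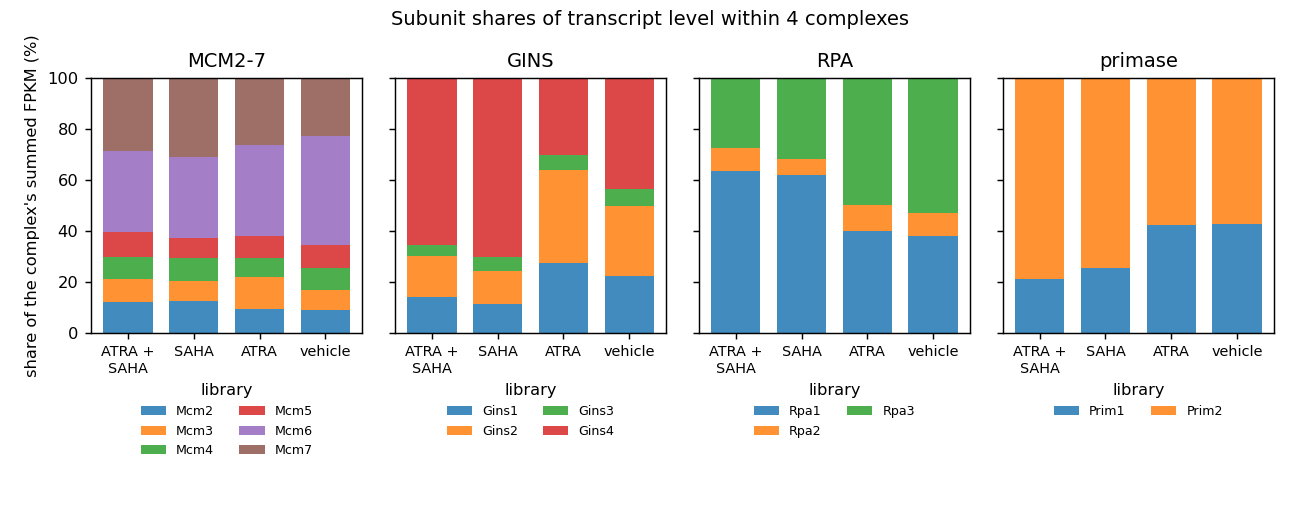
Share of each subunit in the summed FPKM of its complex (percent, stacked bars) for MCM2-7, GINS, RPA and primase, with 1 bar per library. Gins4, Rpa1 and Prim2 take larger shares in the ATRA + SAHA and SAHA libraries, for example 63.5% and 61.8% for Rpa1, than with ATRA (39.8%) and vehicle (37.8%).

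Among the origin licensing genes, the members Orc1, Orc2 and Orc6 of the origin recognition complex had their highest values with both compounds as deposited. With the rescaling without Gm20594, Orc1 was lower in the combination than with SAHA alone (-0.16). Of the other subunits measured, Orc4 was highest with both compounds too as deposited, at 4.70 FPKM in the combination against 1.75 in vehicle. Orc3 was at 1.41 against 1.78 and Orc5 at 1.11 against 1.74. Orc6 (chromosome 8, 85299632 to 85308279) was at 16.9 FPKM in the combination, 6.74 in SAHA, 7.19 in ATRA and 6.96 in vehicle. The 3 other libraries lay close together, and the combination was 2.44-fold above vehicle. Orc6 was called higher in the combination against each of the others, with log2 differences of 1.17 over vehicle, 1.21 over SAHA and 1.13 over ATRA. Without Gm20594 in the scaling the first was 0.95 and the second 0.54, both under the mark. Orc2 was at 8.76, 4.49, 3.74 and 4.81 FPKM in that order and was called higher over ATRA only (1.04, or 0.97 with the rescaling). Orc1, the ATPase subunit, was below the filter, at 0.478 FPKM in the combination, 0.402 in SAHA, 0.283 in ATRA and 0.193 in vehicle.

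The loading factors had smaller differences, and 0 of them passed the mark in the 5 comparisons. Cdt1 was at 5.16 FPKM in the combination, 2.998 in SAHA, 8.97 in ATRA and 5.81 in vehicle. Gmnn, which encodes geminin, the inhibitor of Cdt1, was at 4.65, 3.12, 4.73 and 3.47 FPKM. Cdc6 was below the filter, at 1.34, 0.445, 1.09 and 0.742 FPKM. In each of these 3 genes SAHA alone was the lowest library as deposited, but with the rescaling Gmnn was above vehicle with SAHA (0.28).

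Among polymerase and primase genes, Prim2 and Pold2 differed most. Prim2, the large subunit of primase (chromosome 1, 33453811 to 33669758), was at 15.6 FPKM in the combination, 10.5 in SAHA, 5.40 in ATRA and 5.09 in vehicle. Its partner Prim1, the catalytic subunit, was at 4.18, 3.61, 3.95 and 3.78 FPKM in that order, with log2 differences between -0.05 and 0.17. Prim2 was therefore 78.9% of the primase sum in the combination and 74.4% in SAHA, against 57.8% in ATRA and 57.4% in vehicle. Its log2 difference was 1.45 in the combination over vehicle, 1.38 over ATRA and 0.91 with SAHA alone over vehicle, which became 1.38 with the rescaling.

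Pold2, an accessory subunit of polymerase delta (chromosome 11, 5861866 to 5878256), was at 11.5 FPKM in the combination, 3.89 in SAHA, 6.62 in ATRA and 5.87 in vehicle. Its log2 difference was 1.35 in the combination over SAHA, or 0.72 with the rescaling without Gm20594, and 0.86 over vehicle. The Pold2 row shares its locus with Aebp1, which stood at 1.62, 2.96, 5.39 and 5.62 FPKM, and reads of overlapping genes were not separated here. The other 5 polymerase genes had 0 differences past the mark. Pola1, the catalytic subunit of polymerase alpha, was at 3.01, 1.69, 4.65 and 4.01 FPKM. Its SAHA difference over vehicle was -0.90, the lowest of the polymerase genes. Pold1, the catalytic subunit of polymerase delta, was at 4.58, 2.20, 4.57 and 3.02 FPKM. Pola2, Pole and Pole2 ran between 1.01 and 4.59 FPKM.

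Single-strand DNA is covered by replication protein A. Rpa1, its large subunit (chromosome 11, 75300259 to 75348383), was at 21.6 FPKM in the combination, 13.2 in SAHA, 8.47 in ATRA and 6.61 in vehicle. Its log2 difference was 1.57 in the combination over vehicle, 1.25 over ATRA and 0.90 with SAHA alone over vehicle, which became 1.37 with the rescaling. Rpa2 was at 3.13, 1.36, 2.23 and 1.63 FPKM and Rpa3 at 9.29, 6.79, 10.6 and 9.23 FPKM in that order. The libraries with SAHA were both the highest for Rpa1, but not for the 2 smaller subunits.

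The clamp, clamp loader and Okazaki fragment genes had 0 of 7 past the mark in any of the 5 comparisons as deposited. Pcna, the sliding clamp (chromosome 2, 132249286 to 132253180), was the most abundant member on average, at 20.6 FPKM in the combination, 28.4 in SAHA, 37.2 in ATRA and 29.0 in vehicle. It was 1 of 4 counted members lower in the combination than with SAHA alone, with a log2 difference of -0.45. With the rescaling without Gm20594 that difference was -1.16, past the mark, and Pcna with SAHA over vehicle was at 0.46, against -0.03 as deposited. The others were Rfc5 (-0.06), Slbp (-0.08) and E2f1, at 0.868 FPKM in the combination and 0.874 in SAHA. Rfc2, a clamp loader subunit, was at 17.4, 13.1, 10.9 and 9.30 FPKM, with both SAHA libraries above the others. Lig1, the ligase that joins Okazaki fragments, was at 1.97, 1.31, 3.46 and 3.38 FPKM, with both SAHA libraries below. Fen1, the flap endonuclease, and the loader subunits Rfc3, Rfc4 and Rfc5 stayed between 1.96 and 4.89 FPKM.

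Nucleotide supply genes held the most negative differences of all members, in Tk1 and Rrm2. Tk1, thymidine kinase, which salvages thymidine (chromosome 11, 117815519 to 117839908), was at 1.17 FPKM in the combination, 0.532 in SAHA, 9.95 in ATRA and 8.28 in vehicle. The libraries with and without SAHA did not overlap, and SAHA alone was 15.6-fold below vehicle. Its log2 difference was -2.09 in the combination over vehicle, -2.599 with SAHA and 0.24 with ATRA. Tk1 shares its locus with Afmid, which was at 0.374, 0.376, 0.926 and 0.710 FPKM in that order. By the depth estimate and the longest coding transcript, the Tk1 value with SAHA stood for about 75 fragments.

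Rrm2, the regulated subunit of ribonucleotide reductase (chromosome 12, 24708254 to 24714146), was at 1.14 FPKM in the combination, 0.953 in SAHA, 6.55 in ATRA and 4.47 in vehicle. It was called lower in the combination over vehicle (-1.35), with SAHA over vehicle (-1.49) and in the combination over ATRA (-1.82). Its partner Rrm1, the large subunit, was at 6.01, 3.21, 8.49 and 7.18 FPKM, and its log2 difference was -0.96 with SAHA and -0.22 in the combination, both over vehicle. The Rrm1 value in the combination was thus nearer to vehicle than that of Rrm2. Dut, which removes dUTP, was at 4.03, 2.29, 8.65 and 5.09 FPKM. Tyms, thymidylate synthase, was at 0.926, 0.639, 1.43 and 1.63 FPKM, but a pseudogene row, Tyms-ps, was at 4.03, 2.74, 6.08 and 6.49 FPKM, so how reads were shared out between these rows is uncertain. Ung, a uracil DNA glycosylase, was at 1.34, 0.888, 1.19 and 0.795 FPKM.

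The S-phase entry genes were low in all 4 libraries. E2f1, an activator of replication genes, was at 0.868 FPKM in the combination, 0.874 in SAHA, 2.45 in ATRA and 1.61 in vehicle. The cyclin genes ran in different orders: Ccne1 was at 1.45, 1.35, 0.899 and 0.724 FPKM, and Ccne2, which shares its locus with Ints8 and lay below the filter, was at 0.455, 0.766, 1.70 and 0.918 FPKM. E2f2 was at 0.215 to 0.366 FPKM. None of these 4 genes had a log2 difference of 1 or more in the 5 comparisons.

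The chromatin assembly genes also had 0 past the mark. Chaf1b, a subunit of the factor that places histones on new DNA, was at 4.35 FPKM in the combination, 3.17 in SAHA, 2.70 in ATRA and 2.12 in vehicle. Its partner Chaf1a was at 4.05, 2.31, 3.91 and 2.78 FPKM. Slbp, which binds the stem-loop of replication-dependent histone mRNAs, was at 3.53, 3.80, 6.48 and 5.52 FPKM, with both SAHA libraries below the others.

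**Figure D3:**
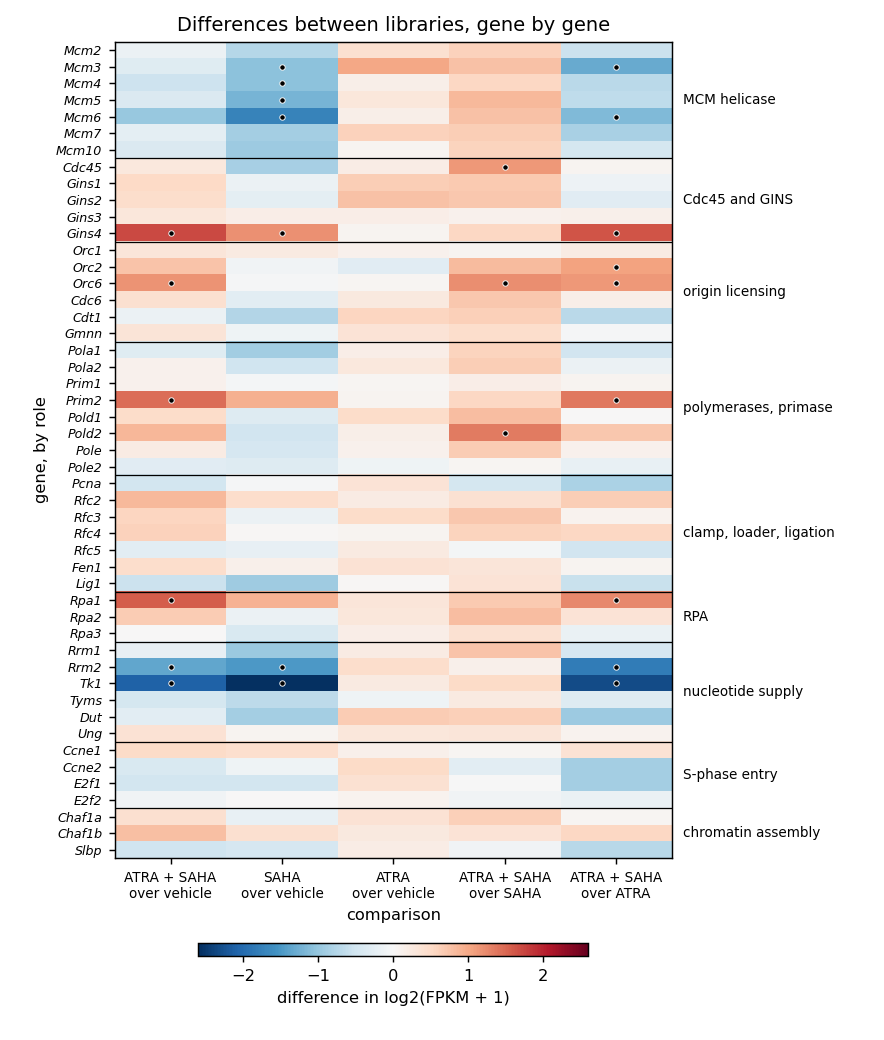
Difference in log2(FPKM + 1) of each of the 49 genes (rows, by role) in 5 comparisons (columns), coloured from blue (lower) to red (higher). Black dots mark differences of 1 or more among the 44 counted genes; they stand in 13 genes, and the ATRA over vehicle column has 0.

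As a set, few members were called in any comparison. With the combination over vehicle, 4 of 44 members were higher (Gins4, Orc6, Prim2 and Rpa1), or 9.09% against 11.1% of all counted genes, and 2 were lower (Rrm2 and Tk1), or 4.55% against 12.6%. With SAHA alone over vehicle, 1 was higher, or 2.27% against 7.88%, and 6 were lower, or 13.6% against 16.0%, so the share called lower is near the background. The set differed more in its direction: 35 of the 44 members, or 79.5%, were below vehicle with SAHA, against 56.6% of all counted genes, and the median was -0.37 against -0.12. After the rescaling without Gm20594 the median was -0.001 against 0.24. Then 3 members were called higher, or 6.82% against 18.0% of all counted genes, and 3 lower, or 6.82% against 10.1%. Of the 44 members 22 were below vehicle and 22 above it, the latter being 50% against 61.7% of all counted genes. Markers of other cell types differed with SAHA as well, and their part in these results was not tested. The summed level of the 8 mesenchymal markers was 372 FPKM in the combination, 327 in SAHA, 468 in ATRA and 596 in vehicle, and among them Prrx1 was at 0.161, 0.177, 9.02 and 8.97 FPKM in that order. The sum of the 5 bile duct markers, nearly all Spp1, was 436, 942, 572 and 340 FPKM. The other counted bile duct markers went the other way from Spp1 with SAHA over vehicle. Krt7 was at 2.32, 1.83, 2.88 and 2.99 FPKM and Sox9 at 0.857, 0.910, 2.69 and 1.19 FPKM. Cd68 was at 4.26, 5.20, 2.41 and 1.89 FPKM.

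With ATRA alone over vehicle, 0 of 44 members were called in either direction, against 0.917% of all counted genes higher and 1.20% lower. Still, 41 of the 44 lay above 0, or 93.2%, against 49.5% of all counted genes. The median was 0.23 against -0.00055 for all counted genes, and after the rescaling it was 0.074 against -0.13, with 31 of the 44, or 70.5%, above 0 against 26.5% of all counted genes. As deposited, the members below vehicle were Orc2 (-0.30), Tyms (-0.11) and Pole2 (-0.11).

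The combination over SAHA asked what ATRA added in the presence of SAHA. Of 44 members 3 were higher (Cdc45, Orc6 and Pold2), or 6.82% against 3.04% of all counted genes, and 0 were lower, against 0.929%. Here 40 of 44 lay above 0, or 90.9%, against 66.7% of all counted genes, and the median was 0.58 against 0.14. After the rescaling without Gm20594 the members' median was 0.025 and that of all counted genes -0.39. The gap between them was 0.41, against 0.43 as deposited, but a rescaling of whole libraries can hardly move this gap. Then 0 members were called higher, against 1.42% of all counted genes, and Pcna was called lower, or 2.27% of members against 6.02%.

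The combination over ATRA asked what SAHA added in the presence of ATRA. Of 44 members 5 were higher (Gins4, Orc2, Orc6, Prim2 and Rpa1), or 11.4% against 10.5% of all counted genes, and 4 were lower (Mcm3, Mcm6, Rrm2 and Tk1), or 9.09% against 11.9%. The median was -0.17 against 0.035, and 25 of the 44 were below 0, or 56.8% against 47.8% of all counted genes. These comparisons share libraries with one another, so they are not independent.

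A departure from additivity was computed by taking the SAHA and the ATRA log2 differences from that of the combination, all over vehicle. It was 1 or more in 3 of 44 members, or 6.82% against 4.69% of all counted genes, and -1 or less in 0, against 1.73%. The 3 were Pold2 (1.20), Orc6 (1.17) and Orc2 (1.13), and Cdc45 was next at 0.93. Pcna had the lowest value, -0.80. For Tk1 (0.27) and Rrm2 (-0.33) the departure was smaller on this scale, which understates the differences of low genes such as Tk1 with SAHA (0.532 FPKM). In plain FPKM, Tk1 was 2.21-fold higher in the combination than with SAHA alone, against 1.20-fold for ATRA over vehicle. Over the 44 members the median departure was 0.24, against 0.15 for all counted genes. Rescaled without Gm20594, it was -0.18 against -0.26, with 0 members at 1 or more and Pcna at -1.33.

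**Figure D4:**
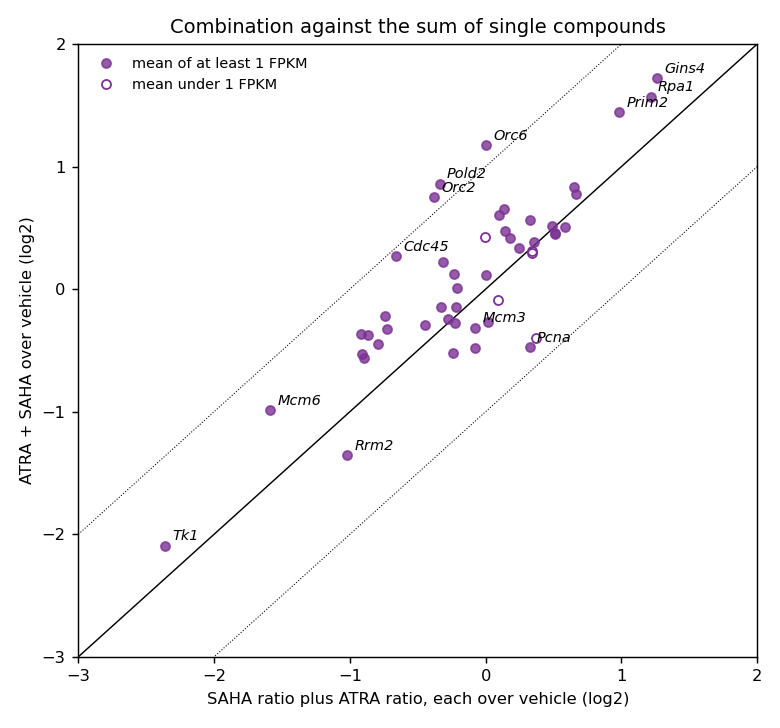
Log2 difference of the combination over vehicle (vertical axis) against the sum of the SAHA and ATRA differences over vehicle (horizontal axis), 1 point per gene, with open points for the 5 genes below the filter. The solid line marks equality and the dotted lines a departure of 1; Orc2, Orc6 and Pold2 lie above the upper dotted line.

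The members with an E2F word in a promoter can be set beside those without. Among the 10 counted genes with a word, the median log2 difference with SAHA over vehicle was -0.89, with 3 called lower, and it ran from -1.75 to -0.14. The 3 were Mcm3, Mcm5 and Mcm6, and 16.0% of all counted genes were called lower. Among the 26 matched and counted genes without one, the median was -0.30, with 2 called lower, and it ran from -2.599 to 0.90. The ranges overlap, with the rescaling without Gm20594 the medians were -0.50 and 0.10, and both Tk1 and Rrm2 are in the group without a word. In the combination over vehicle the medians were -0.30 with a word and 0.12 without, and with ATRA over vehicle they were 0.38 and 0.23. Since 4 of the 10 genes with a word encode MCM subunits, the groups differ in role as well.

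Other replication genes, 45 listed by name and 33 of them counted, were also mostly below vehicle with SAHA. With SAHA over vehicle 5 of 33 were lower, or 15.2% against 16.0% of all counted genes, and 0 higher against 7.88%, the median being -0.40. With the rescaling without Gm20594 3 were higher and 3 lower, or 9.09% each against 18.0% and 10.1% of all counted genes, and the median was -0.060. The 5 were Usp1, a deubiquitinase (1.18 FPKM with SAHA against 6.02 with vehicle), Dbf4, the activator of the CDC7 kinase (1.46 against 6.67), Dctd, dCMP deaminase (0.316 against 3.06), Shmt1, a folate enzyme (1.18 against 3.54), and Uhrf1, a maintenance methylation factor (2.99 against 7.20). In the combination over vehicle 2 were higher, Asf1b, a histone chaperone (6.77 FPKM against 2.08), and Orc4 (4.70 against 1.75), and 2 were lower, Dctd and Usp1. These are 6.06% each, against 11.1% of all counted genes higher and 12.6% lower. With ATRA over vehicle 0 of 33 passed the mark, against 0.917% of all counted genes higher and 1.20% lower. Of the 33, 21 were above 0, or 63.6% against 49.5% of all counted genes. The median was 0.090, or -0.073 with the rescaling, where that of all counted genes was -0.13.

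Of 29 listed cell cycle regulators upstream of these genes, 22 were counted. With SAHA over vehicle 5 were lower, or 22.7% against 16.0% of all counted genes, and 1 higher, or 4.55% against 7.88%. Under that same rescaling, 4 of the 22 were lower and 3 higher, where 10.1% of all counted genes were lower and 18.0% higher. The median was then 0.21, against -0.10 as deposited. Ccnd1, cyclin D1, was at 0.723 FPKM in the combination, 0.674 in SAHA, 45.3 in ATRA and 37.0 in vehicle. Its partner kinases followed the same split, with Cdk4 at 14.7, 11.3, 40.1 and 34.9 FPKM and Cdk6 at 0.517, 0.746, 5.53 and 5.59 FPKM. Myc was at 13.1, 6.97, 26.5 and 44.7 FPKM, and Ccna2, cyclin A2, at 10.3, 3.56, 12.7 and 10.9 FPKM. The gene called higher was Rb1, the retinoblastoma protein that restrains E2F, at 5.34, 6.20, 1.23 and 1.18 FPKM. Ccnd3, cyclin D3, went the other way from Ccnd1, at 7.92, 6.91, 3.30 and 3.06 FPKM. Both SAHA libraries were thus low in Ccnd1, Cdk4 and Cdk6 and high in Rb1 and Ccnd3, while Ccna2 in the combination was close to vehicle.

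Genes of G2 and mitosis, and the clustered histone genes whose transcripts accumulate in S phase, had larger differences with SAHA, although the difference between lists was not tested. Of 40 listed G2/M genes 31, or 77.5%, were lower with SAHA over vehicle, with a median of -1.21. Of 65 counted clustered histone genes 59, or 90.8%, were lower, with a median of -1.86. For the members these values were 6 of 44, or 13.6%, and -0.37, while 16.0% of all counted genes were lower. With the rescaling without Gm20594 17 G2/M genes, 53 histone genes and 3 members were lower, and 10.1% of all counted genes were. In the combination over SAHA the medians were 0.58 for the members, 1.05 for G2/M genes and 2.07 for clustered histones, and with the rescaling 0.025, 0.56 and 1.34. In the combination over vehicle they were 0.12, -0.15 and 0.25.

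**Figure D5:**
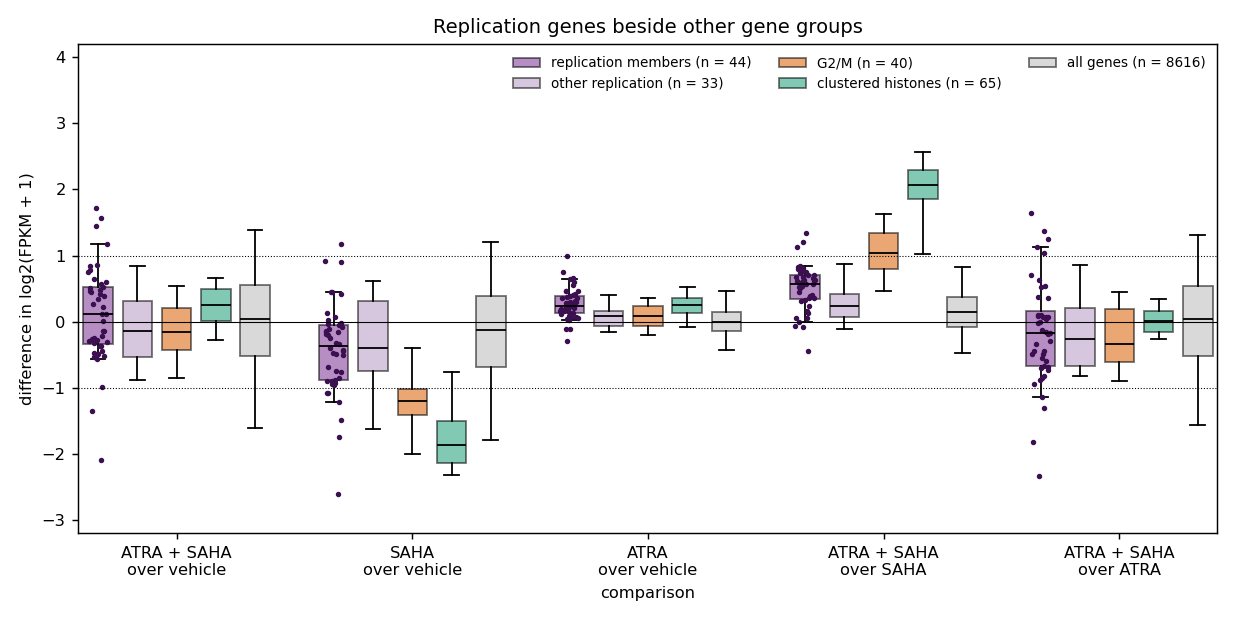
Difference in log2(FPKM + 1) in 5 comparisons for the 44 replication members, 33 other replication genes, 40 G2/M genes, 65 clustered histone genes and 8616 counted genes. Boxes span the quartiles with the median, whiskers the 5th to 95th percentile, points are the members, and dotted lines mark 1 and -1; the members' median with SAHA over vehicle is -0.37, against -1.21 for G2/M genes and -1.86 for clustered histones.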

How the data were processed

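Per the labels' protocols, ribosomal RNA was removed from total RNA and the remainder was sequenced. Per the submitters' processing notes, Trimmomatic 0.32 and Cuffdiff were used with build mm10. Not given in the sources used here are the aligner, annotation, Cuffdiff version, strand setting and scaling between libraries. The deposited table holds FPKM, 1 column per library, per the file headers. Members were matched by gene identifier, and 7 share their locus with another row. Coordinates are those of the table, counted from 1. Differences were computed on log2(FPKM + 1) from the deposited values with Python 3.11.15, pandas 2.3.3 and numpy 2.4.6. The rule of size was tried on simulated data with an assumed noise and planted differences well past the mark. That trial cannot show how the rule does near the mark or at low FPKM, since the real noise is unknown. The depth estimate takes the first repeated step of FPKM times length as 1 fragment, over GENCODE M21 genes with 1 transcript of 1000 to 4000 bases. The printed promoter bases overlap no GENCODE M21 exon. All 49 members were named, and those past the mark lead. The members and lists were chosen with earlier results of these data known. Alternatives were a pseudocount of 0.1, no filter, a mean of at least 5 FPKM, centring on the median of all counted genes, and 3 rescalings, of which 2 were chosen after seeing the data.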

Additional observations from a re-analysis of the deposited data

Results flagged for a closer look

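In 3 members the difference that one compound made had opposite signs without and with the other compound, and the departure from additivity was 1 or more. For Orc6 the SAHA difference was 1.13 on the log2 scale with ATRA present and -0.039 without it. For Orc2 it was 1.04 with ATRA present and -0.083 without it, and the ATRA difference was 0.83 with SAHA present and -0.30 without it. For Pold2 the SAHA difference was 0.71 with ATRA present and -0.49 without it. Rescaled without Gm20594, 0 members had a departure of 1 or more, and the SAHA difference without ATRA was 0.40 for Orc6, 0.34 for Orc2 and -0.079 for Pold2, so that for Orc6 and Orc2 it had the same sign as with ATRA present. Equal upper quartiles also left 0 members at 1 or more. Each value rests on 1 library per group, and the difference between the effects was not tested. Groups had 1 sample each, so no library could be checked as standing apart within its group.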

How the results depend on the processing

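Of 25 calls of single members in the 5 comparisons, 11 stayed past the mark under all 7 alternatives and 0 turned round. Of the rest, the 6 calls of Rrm2 and Tk1 were lost with a mean of at least 5 FPKM, which these genes do not reach, as were those of Mcm4, Mcm5 and Cdc45. The rescaling without Gm20594 took calls of Cdc45, Mcm3, Mcm4, Mcm5, Orc2, Orc6 and Pold2 under the mark, and centring or upper quartiles did so for some calls of Cdc45, Mcm3, Mcm4, Orc2 and Orc6. Medians of the members are on the log2 scale, and the cause of each shift was not tested beyond what the rescaling itself does. With the rescaling without Gm20594 the median was -0.073 in the combination over vehicle and -0.18 for the departure from additivity, both turned round, and it was -0.0010 with SAHA over vehicle, 0.074 with ATRA over vehicle and 0.025 in the combination over SAHA. Members called higher and lower were then 3 and 3 with SAHA over vehicle, 0 and 1 in the combination over SAHA, and 0 and 1 for the departure. Equal totals without small RNAs gave a median of 0.099 with ATRA over vehicle. Equal upper quartiles gave medians of -0.24 with SAHA over vehicle, 0.41 in the combination over SAHA and 0.057 for the departure, with 3 higher with SAHA, 1 higher in the combination over SAHA, and 0 higher and 1 lower for the departure. Centring gave medians of -0.25, 0.43 and 0.076 in the same order, with 3 higher with SAHA. A pseudocount of 0.1 gave medians of -0.48 with SAHA over vehicle and 0.75 in the combination over SAHA, with 2 higher and 13 lower with SAHA, 9 higher in the combination over SAHA, 1 higher with ATRA and 5 higher for the departure. A mean of at least 5 FPKM, which leaves fewer members, turned the combination's median over vehicle to -0.067 and gave -0.30 over ATRA, with 0 lower over vehicle, 2 lower over ATRA and 2 lower with SAHA over vehicle. The gap between the members' median and that of all counted genes ran from -0.25 to -0.24 with SAHA over vehicle under the 3 rescalings and centring. In the combination over SAHA it ran from 0.41 to 0.44. These settings shift all genes by nearly the same amount, so they could hardly move the gap and do not test it. The gaps were -0.32 and 0.56 with a pseudocount of 0.1, -0.27 and 0.57 without a filter, and -0.32 and 0.39 with a mean of at least 5 FPKM. No paired analysis was possible because each group had 1 library, and no library could be left out.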

Other observations

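The introns of Mcm7 hold the microRNA genes Mir106b, Mir93 and Mir25, which have rows of their own at the same locus. Mir106b and Mir25 were listed at 0 in all 4 libraries, and Mir93 was listed at 4.86 FPKM with ATRA and at 0 in the others. No comparison is made from these rows.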
